A study of Rattus norvegicus with 6 samples.

Results

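The brush border of the proximal tubule carries a dense set of peptidases on its outer face, and 8 of their genes were examined here in kidneys of Han:SPRD rats. The genes are Anpep, Dpp4, Xpnpep2, Mep1a, Mep1b, Mme, Ggt1 and Dpep1. They were chosen by name: a probe set belonged to a gene when the platform annotation gave it that single symbol, and the brightest probe set over the 6 arrays stood for the gene. The 8 genes have 11 probe sets and are 8 of 10645 genes tested. The groups were 3 kidney samples of heterozygous Cy/+ males and 3 of wild-type +/+ males of the same colony, with 1 Affymetrix array each. The labels name no treatment. Cy/+ rats carry 1 mutant copy of Anks6 in every cell and develop cystic kidneys. The labels give an age of 10 weeks for all 6 samples, whereas the methods state a younger age for the array samples. Whether the 3 samples of a group are separate rats is not given in the sources used here, and p-values refer to the spread from sample to sample, part or all of which may be technical.

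Peptides and small proteins that pass the glomerular filter are cut at the brush border, and the amino acids and short peptides that result are taken up by transporters of the same membrane. Exopeptidases such as aminopeptidase N remove residues from the end of a peptide, while endopeptidases such as neprilysin and the meprins cut within it. Gamma-glutamyltransferase and the renal dipeptidase act in turn on glutathione, which the tubule breaks down outside the cell and rebuilds inside. Enzymes of this group are textbook markers of the proximal tubule, although Dpp4 (CD26) also occurs on T cells, Anpep (CD13) on myeloid cells and Mme (CD10) on podocytes.

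All 8 genes had a lower signal in Cy/+ than in +/+ kidneys, and for each of them every Cy/+ array lay below every +/+ array. The fall ranged from 2.23-fold for Ggt1 to 10.3-fold for Xpnpep2, and the median log2 fold change of the 8 genes was -2.10, against 0.090 for all tested genes. In these arrays 29.3% of the tested genes were called lower (limma, Benjamini-Hochberg adjusted p under 0.05) and 33.1% had every Cy/+ array below every +/+ array. Each of the 8 lay among the 837 genes of lowest log2 fold change, which is 7.86% of those tested. In whole kidney, fewer proximal tubule cells and less RNA per cell cannot be told apart.

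The start regions of 3 of the genes are shown because the 8 genes moved together and because genes of this segment are known targets of hepatocyte nuclear factor 1 (HNF1). Each window holds 250 bases before and 50 after the annotated start, read 5′ to 3′ on the gene's own strand from RefSeq on assembly GRCr8, for which all 8 genes had an entry. Capitals mark GTTAAT, the half-site of HNF1, on either strand. The windows are chr1:143195052-143195351 on the minus strand for Anpep, chr18:12640791-12641090 on the plus strand for Mep1b and chr9:24971651-24971950 on the plus strand for Mep1a. They take in bases before the gene, its first transcribed bases and, for Anpep, whose span in the annotation extends further upstream, sequence inside the gene.
Anpep: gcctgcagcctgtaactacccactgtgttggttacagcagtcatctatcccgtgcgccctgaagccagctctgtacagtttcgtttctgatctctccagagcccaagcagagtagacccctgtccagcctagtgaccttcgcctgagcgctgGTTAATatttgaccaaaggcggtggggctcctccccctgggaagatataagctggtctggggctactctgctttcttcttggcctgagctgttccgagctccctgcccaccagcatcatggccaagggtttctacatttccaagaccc
Mep1b: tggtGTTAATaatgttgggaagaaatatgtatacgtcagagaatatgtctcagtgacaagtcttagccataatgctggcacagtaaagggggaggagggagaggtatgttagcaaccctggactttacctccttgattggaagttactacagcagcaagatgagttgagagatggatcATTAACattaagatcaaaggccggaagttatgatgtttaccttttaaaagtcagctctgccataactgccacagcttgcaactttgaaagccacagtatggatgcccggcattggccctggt
Mep1a: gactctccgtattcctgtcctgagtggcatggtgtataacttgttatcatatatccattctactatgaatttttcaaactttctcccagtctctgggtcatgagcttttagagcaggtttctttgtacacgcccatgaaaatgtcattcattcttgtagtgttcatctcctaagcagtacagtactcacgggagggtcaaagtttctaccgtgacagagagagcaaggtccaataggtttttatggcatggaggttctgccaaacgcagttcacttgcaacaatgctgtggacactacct

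The half-site begins 98 bases before the start of Anpep, and at 246 and 72 bases before that of Mep1b. It was found in the windows of these 2 genes and in none of the other 6, among them Mep1a, whose fold change was close to that of Mep1b. Of 27457 windows in the table, 7.37% hold GTTAAT, and so do 4.36% of the 8890 that belong to tested genes. The HNF4 motif CAAAGTCCA and the TATA box TATAAA were searched on both strands too and were in none of the 8 windows, against 0.375% and 14.3% of all windows and 0.349% and 6.63% of those of tested genes. With GTTAAT the sole motif present, no match overlapped that of another motif. For 5 of the genes, namely Anpep, Dpep1, Mme, Ggt1 and Xpnpep2, the window lies inside the annotated span, so that transcripts with another start exist.

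The aminopeptidases and dipeptidyl peptidases were lower to unequal degrees. Xpnpep2 encodes membrane-bound aminopeptidase P, which removes the residue in front of a proline and is known to inactivate bradykinin. Its signal (linear MAS5 signal, arbitrary units) was 1983, 2231 and 2043 in +/+ replicates 1, 2 and 3 and 262.5, 107.4 and 292.0 in Cy/+ replicates 1, 2 and 3. The lowest +/+ array lay 6.79-fold above the highest Cy/+ array, the widest gap among the 8 genes. The +/+ mean of 2086 ± 129 (SD, n = 3) compared with 221 ± 99.2 (SD, n = 3) for Cy/+, a log2 fold change of -3.37 (limma, standard error 0.35, adjusted p = 0.00019).

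Anpep encodes aminopeptidase N, a zinc enzyme that trims neutral residues from the start of peptides. Its signal was 8322, 8777 and 7795 in the +/+ arrays and 1878, 1157 and 3487 in the Cy/+ arrays. The Cy/+ arrays differed among themselves by up to 3.01-fold and the +/+ arrays by 1.13-fold, and the genotypes did not overlap. From 8298 ± 491 (SD, n = 3) to 2174 ± 1193 (SD, n = 3), the log2 fold change was -2.08 (limma, standard error 0.35, adjusted p = 0.00168).

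Dpp4 encodes dipeptidyl peptidase 4, which releases dipeptides that end in proline or alanine and is known for the breakdown of incretin hormones. Its signal was 6362, 6504 and 5739 in the +/+ arrays and 3320, 2075 and 2973 in the Cy/+ arrays. It spread least of the 8 genes among the Cy/+ arrays, where the highest was 1.60-fold the lowest. The fall was 2.26-fold, with a 95% interval of 1.71 to 2.99 and an adjusted p of 0.000802 (limma). A second probe set of Dpp4 gave 4378, 4232 and 3734 in +/+ and 2525, 1639 and 2088 in Cy/+ arrays, a log2 fold change of -1.0 (limma, adjusted p = 0.0012) against -1.18 by the first.

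**Figure D1:**
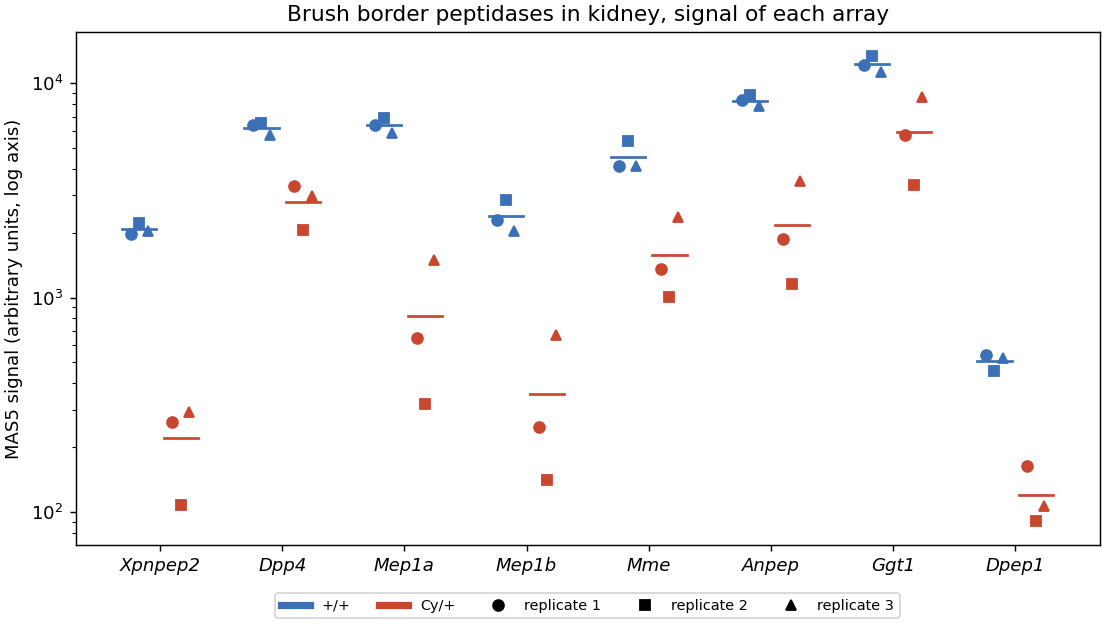
Signal of each array in arbitrary units on a log axis for the 8 brush border peptidase genes, with +/+ in blue, Cy/+ in red, a symbol for each replicate and a line at the mean of each genotype. Levels cannot be set against each other between genes. Every red point lies below the blue points of its gene, and the widest gap is that of Xpnpep2, from 1983 to 292.0.

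The endopeptidases included both meprin subunits. Mep1a and Mep1b encode the alpha and beta subunits of meprin, a metalloprotease of the astacin family. The Mep1a signal was 6384, 6919 and 5862 in the +/+ arrays and 644.1, 319.7 and 1502 in the Cy/+ arrays. That of Mep1b was 2313, 2863 and 2042 in the +/+ arrays and 249.3, 140.1 and 671.2 in the Cy/+ arrays. In both genes Cy/+ replicate 3 was the highest and replicate 2 the lowest Cy/+ array, with a range of 4.70-fold for Mep1a and 4.79-fold for Mep1b, and neither overlapped with +/+. The log2 fold change of Mep1a was -3.24 (limma, standard error 0.49, adjusted p = 0.000983), a fall of 9.42-fold with a 95% interval of 4.22 to 21.0. For Mep1b it was -3.06 (limma, standard error 0.51, adjusted p = 0.00155), a fall of 8.32-fold with an interval of 3.61 to 19.2. Without Cy/+ replicate 3 the value of Mep1b moved by 1.53-fold, to a log2 fold change of -3.67 (limma, adjusted p = 0.000185).

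Mme encodes neprilysin, which degrades natriuretic peptides, bradykinin and other small peptides. Its signal was 4099, 5401 and 4112 in the +/+ arrays and 1358, 1006 and 2370 in the Cy/+ arrays, without overlap. The log2 fold change was -1.60 (limma, standard error 0.30, adjusted p = 0.00246). Podocytes also carry neprilysin, and of the 6 podocyte markers tested 4 were lower, namely Nphs1 at -1.30, Podxl at -1.08, Wt1 at -1.34 and 1 more, while Synpo (0.56) and Cdkn1c (0.76) were higher. The shares of 66.7% lower and 33.3% higher compare with 29.3% and 37.4% of all tested genes, so the share of higher markers was near that of all genes. Synpo missed the threshold without +/+ replicate 2, and Cdkn1c without any array but Cy/+ replicate 1. The summed signal of these 6 markers was 3962 to 4413 in +/+ and 3757 to 4723 in Cy/+ arrays. These near-equal sums hide changes both ways, since the mean of Synpo rose from 1556 to 2316 while that of Podxl fell from 1233 to 589. Levels cannot be set against each other between genes, so the sum does not measure podocytes. The part of podocytes in the value of Mme was not tested.

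Ggt1 and Dpep1 encode the pair of enzymes that take glutathione apart outside the cell. Ggt1 encodes gamma-glutamyltransferase, which splits off the glutamyl residue. Its signal was 12170, 13480 and 11280 in the +/+ arrays and 5719, 3365 and 8662 in the Cy/+ arrays. The groups were nearest to each other here, with the lowest +/+ array 1.30-fold above the highest Cy/+ array. The log2 fold change was -1.16 (limma, standard error 0.31, adjusted p = 0.0127), a fall of 2.23-fold with a 95% interval of 1.35 to 3.69. With the test that the methods name, run per probe set, the adjusted p of Ggt1 was 0.0685.

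Dpep1 encodes the renal membrane dipeptidase, which cleaves the cysteinylglycine left by the first step and also leukotriene D4. Its signal was 538.0, 455.6 and 521.6 in the +/+ arrays and 164.2, 90.27 and 106.5 in the Cy/+ arrays. These lay well apart, and here replicate 1 was the highest Cy/+ array. The log2 fold change was -2.11 (limma, standard error 0.22, adjusted p = 0.000172). A second probe set of Dpep1 gave -1.35 (limma, adjusted p = 0.00143). The remaining probe set, whose mean lay below the level needed for testing, had 93.71, 77.12 and 85.82 in +/+ and 52.71, 29.71 and 39.99 in Cy/+ arrays.

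Ratios between pairs of these genes within an array do not depend on how arrays were scaled, and 5 pairs were compared. The Dpp4 over Xpnpep2 ratio, of 2 enzymes that act at proline, was 4.56-fold higher in Cy/+ kidneys, since Xpnpep2 fell further than Dpp4. On the log2 scale this ratio was 1.57 ± 0.099 (SD, n = 3) in +/+ and 3.76 ± 0.47 (SD, n = 3) in Cy/+ arrays (exact two-sided permutation test, p = 0.1, the smallest that 3 arrays against 3 allow, and 0.167 after adjustment over the 5 pairs). The Ggt1 over Dpep1 ratio was 1.94-fold higher in Cy/+ (4.61 ± 0.24 in +/+ and 5.56 ± 0.68 in Cy/+ on the log2 scale, SD, n = 3), and the Mme over Anpep ratio 1.39-fold higher (exact permutation test, p = 0.1 and adjusted p = 0.167 for both). For these 3 pairs no Cy/+ array overlapped with the +/+ arrays. With the second probe set of Dpep1 the Ggt1 over Dpep1 ratio was 1.14-fold higher in Cy/+ and the arrays overlapped (exact permutation test, p = 0.8), so its larger value rested on the brightest probe set.

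For the meprin subunits the arrays of the genotypes overlapped. The log2 ratio of Mep1a over Mep1b was 1.42 ± 0.13 (SD, n = 3) in +/+ and 1.24 ± 0.11 (SD, n = 3) in Cy/+ kidneys, with a difference of -0.18 (exact two-sided permutation test, p = 0.2, adjusted p = 0.25). The Anpep over Dpep1 ratio differed by 0.036 on the log2 scale (exact permutation test, p = 1), with 4.04 ± 0.20 in +/+ and 4.08 ± 0.83 in Cy/+ arrays (SD, n = 3). Its Cy/+ value rested on replicate 3, and without it the difference was -0.44. With the second probe set of Dpep1 it was -0.73.

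The Cy/+ arrays differed among themselves far more than the +/+ arrays did. The SD of the log2 signal was 0.35 to 1.14 in Cy/+ and 0.086 to 0.25 in +/+ over the 8 genes, and it was the larger in Cy/+ for all 8. Cy/+ replicate 2 had the lowest Cy/+ signal for all 8 genes by their brightest probe sets, whereas the second probe set of Dpep1 was lowest in replicate 3. In replicate 2, 5.00% of the +/+ mean remained for Mep1a, 5.15% for Xpnpep2, 5.82% for Mep1b, 13.9% for Anpep and 33.5% for Dpp4. Cy/+ replicate 3 had the highest Cy/+ signal for 6 genes, with 70.4% remaining for Ggt1, 52.2% for Mme, 42.0% for Anpep, 27.9% for Mep1b, 23.5% for Mep1a and 14% for Xpnpep2. Cy/+ replicate 1 was highest for Dpp4 (53.5%) and Dpep1 (32.5%). Over 13 markers of the proximal tubule the median signal remaining was 23.1%, 9.70% and 18.9% in Cy/+ replicates 1, 2 and 3. Replicate 2 was the lowest Cy/+ array for 10 of the 13 markers, and replicate 1 was the highest for 7 and replicate 3 for 6.

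**Figure D2:**
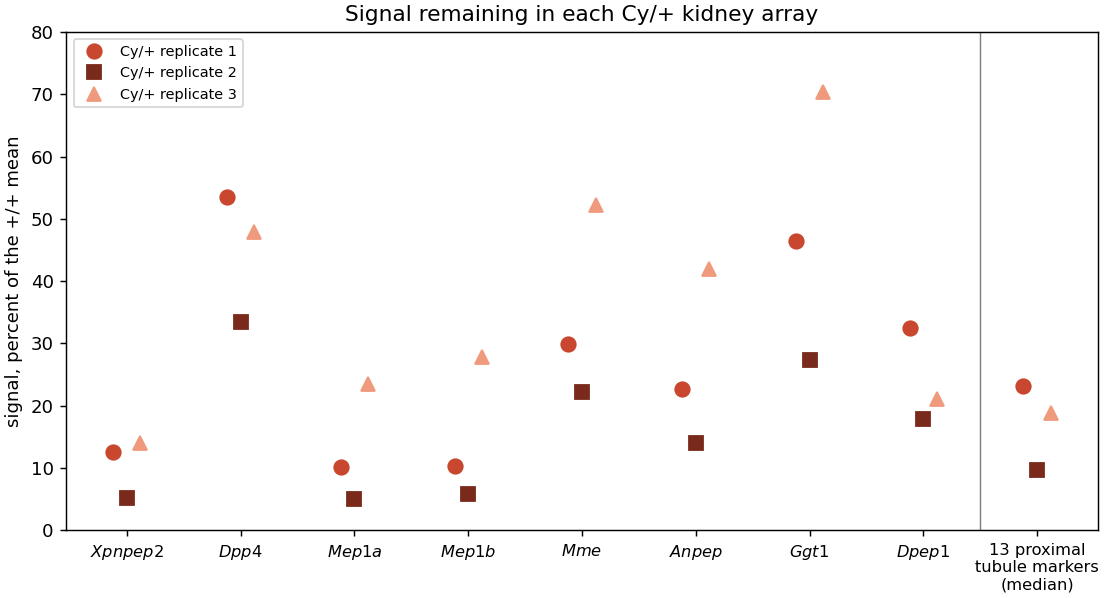
Signal of each Cy/+ array as a percent of the mean of the 3 +/+ arrays, for the 8 genes and, right of the line, as the median over 13 proximal tubule markers, with a symbol for each Cy/+ replicate. Replicate 2 is the lowest for every gene, from 5.00% for Mep1a to 33.5% for Dpp4, and replicate 3 reaches 70.4% for Ggt1.

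Measures of array and RNA quality and markers of other cell types moved with the genotype as well. Pairs of +/+ arrays had a Pearson r of 0.997 over all log2 signals, pairs of Cy/+ arrays one of 0.982 to 0.990 and pairs across genotypes one of 0.907 to 0.940 (across probe sets, which are not independent replicates). The beta-actin control ratio of 3' over 5' signal, which rises as RNA is degraded or incompletely labeled, was 1.5 to 1.52 on +/+ and 3.05 to 3.53 on Cy/+ arrays. Controls added to the hybridization were brighter on Cy/+ arrays by a median of 1.83-fold and poly-A controls by 3.82-fold. Of 13 leukocyte markers tested 11 were higher in Cy/+ kidneys, among them Ptprc (1.53), Cd14 (2.15), Lyz2 (1.04) and Cd68 (1.26) on the log2 scale, and the T cell gene Cd3e by at least 3.21-fold and Fcgr2b by at least 4.5-fold, while Cd4 and Itgam did not pass, at -0.058 and 0.0011. Their summed signal was 13540 to 15351 in +/+ and 23350 to 30012 in Cy/+ arrays, a sum that does not measure leukocytes. Genes of fibroblasts and pericytes were higher for 6 of 7, with Col1a1 at 3.98, Col1a2 at 2.05 and Vim at 2.68, and injured tubule genes for 8 of 8, with Havcr1 at 5.10 Lcn2 at 5.11, Clu at 3.24 and Krt8 at 1.63, where 37.4% of all tested genes were called higher. The part of each of these in the values of the peptidases was not tested.

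The defining markers of the proximal tubule were well measured in +/+ kidneys and lower in Cy/+ kidneys. Of 13 tested, 12 were lower (92.3%, against 29.3% of all tested genes), and the list had a median of -2.51 on the log2 scale. Slc5a2, the glucose carrier gene of the early segment, was at -2.91. Slc34a3 (-4.25) and Slc22a8 (-4.44) were among the markers that fell further than any of the 8 peptidase genes. Without Cy/+ replicate 1 Slc22a8 was at -5.05. Aqp1 (-1.36) and Slc5a1 (-1.07) fell by about as much as Dpp4 and Ggt1. The summed signal of the 13 markers was 123548 to 128664 in +/+ and 14827 to 37407 in Cy/+ arrays, a sum that does not measure proximal tubule cells. Cyp4b1 was the exception, at 0.85 (limma, adjusted p = 0.042), and missed the threshold after quantile normalization, after median centring of the arrays, with array weights, with the methods' test, and without any single array other than Cy/+ replicate 3.

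Among other peptidases of the cell surface or the extracellular space the direction was mixed. Of 34 listed, 28 had a probe set of their own and 16 were tested. Of these 7 (43.8%) were lower, 6 (37.5%) higher and 3 did not pass, at a median of -0.070 on the log2 scale. Among all tested genes 29.3% were called lower and 37.4% higher, so the share of higher genes was near that of all genes. The lower genes were led by Folh1, which encodes a carboxypeptidase that releases glutamate. Its signal was 548 ± 85.3 (SD, n = 3) in +/+ kidneys and at least 7.05-fold lower in Cy/+ kidneys, where it did not reach the level needed for testing (limma, adjusted p = 2.04e-05). Cndp1, the gene of a carnosinase, had a log2 fold change of -2.76. Enpep, which encodes aminopeptidase A, the enzyme that turns angiotensin II into angiotensin III, had one of -1.79 (limma, adjusted p = 0.000852), from 4994 ± 338 to 1520 ± 537 (SD, n = 3). A second probe set of Enpep gave 0.13 (limma, adjusted p = 0.421). The serine proteases Prss8 (-1.47) and Hpn (-1.45), the carboxypeptidase Cpn1 (-1.09) and Ggt5 (-0.26), a relative of Ggt1, were lower too.

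Cpe, which encodes the carboxypeptidase E of prohormone processing, rose most of the 16 genes tested here, with 325 ± 34.0 (SD, n = 3) in +/+ and 2142 ± 840 (SD, n = 3) in Cy/+ kidneys and a log2 fold change of 2.66 (limma, adjusted p = 0.000121). St14, the gene of matriptase, had one of 1.79, Ece1, which encodes an endothelin-converting enzyme, one of 0.87 and Cpd one of 0.80. A second probe set of Cpd, below the level needed for testing, had a mean of 61.2 in +/+ and 46.2 in Cy/+ kidneys. Tmprss2 was at 0.75 by its brightest probe set, while its second probe set was lower, at -0.86 (limma, adjusted p = 0.00867). Ggt7 was higher by at least 1.14-fold (limma, adjusted p = 0.0476), with a +/+ mean below the level needed for testing. By their brightest probe sets, both Ggt5 and Tmprss2 missed the threshold when a single array other than Cy/+ replicate 1 was left out. Ggt7 missed it after median centring, with no filter, with probe sets averaged, with the replicate block, with the methods' test after adjustment, and without +/+ replicate 1 or 2 or Cy/+ replicate 2 or 3. Ace, the gene of angiotensin-converting enzyme, did not pass, at 262 ± 49.9 (SD, n = 3) in +/+ and 265 ± 17.8 (SD, n = 3) in Cy/+ kidneys, although a second probe set of Ace was higher by at least 1.2-fold (limma, adjusted p = 0.0456). Neither did Cpz (0.54) and Cpm (-0.17), of which a second probe set was lower by at least 1.68-fold (limma, adjusted p = 0.000271).

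**Figure D3:**
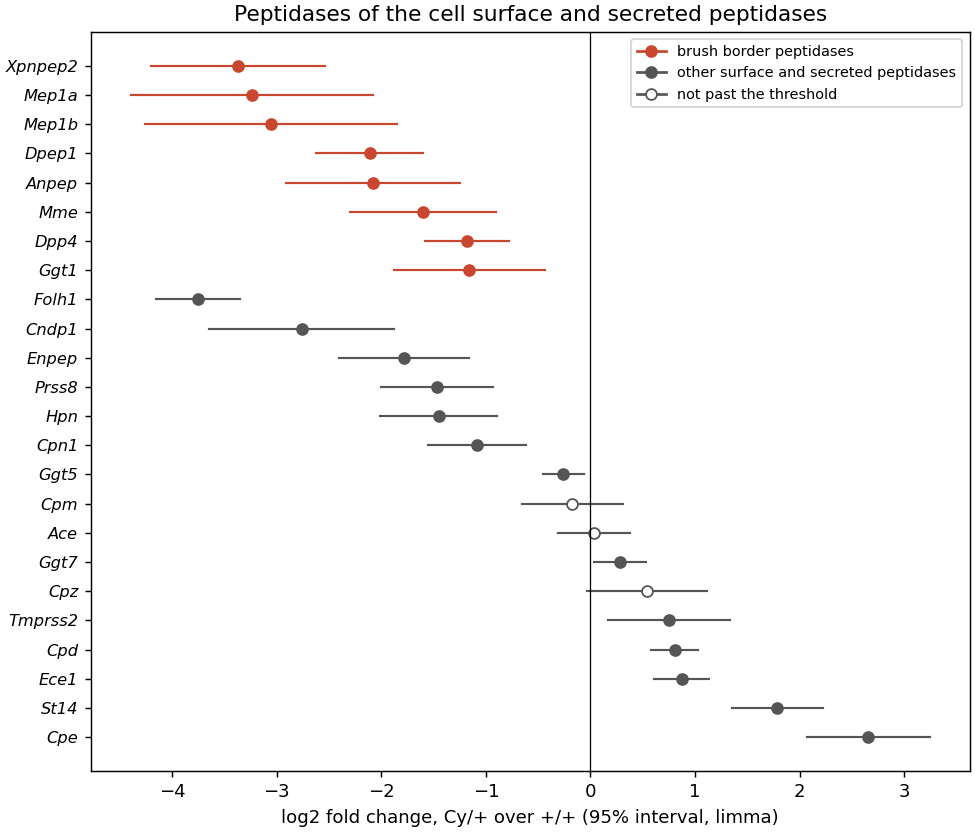
Log2 fold change, Cy/+ over +/+, with its 95% interval from limma for the 8 brush border peptidases in red and 16 other surface and secreted peptidases in grey, with open points for genes not past the threshold. The 8 red points lie between -3.37 and -1.16, and the grey points lie on both sides of 0, from Folh1 to Cpe at 2.66. Folh1 and Ggt7 are drawn at their fitted values, although 1 genotype of each allows a bound alone.

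Among 35 tested genes listed as peptidases inside the cell, 17 were lower (48.6%, against 29.3% of all genes) and 7 higher (20%, against 37.4%). The other 11 did not pass, and the median log2 fold change of the list was -0.27. Pepd, which encodes the prolidase that splits dipeptides ending in proline, had a log2 fold change of -1.97, and Prep, the gene of prolyl oligopeptidase, one of -2.21. Aspa, which encodes aspartoacylase, had one of -3.25, although it and other acylases on the list are not peptidases. The higher ones were led by Erap1 (1.23), which trims peptides for antigen presentation, Rnpepl1 (1.31) and Prcp (1.01). The cytosolic relative of Xpnpep2, Xpnpep1, had a log2 fold change of -1.05 (limma, adjusted p = 0.000197), and the mitochondrial one, Xpnpep3, one of 0.16 that did not pass.

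Genes of amino acid and peptide transport were lower throughout. Of 13 such genes tested, listed as amino acid and peptide uptake but not all carriers of the brush border, all 13 were lower. Their median was -1.49 on the log2 scale, while 29.3% of all tested genes were called lower. The peptide transporter gene Slc15a2 had a log2 fold change of -1.49, from 2401 ± 440 (SD, n = 3) to 878 ± 293 (SD, n = 3), and Slc15a1 was at least 3.69-fold lower (limma, adjusted p = 1.36e-05). Among the amino acid carriers, Slc7a8 had one of -2.10 and Slc3a2, the heavy chain shared by several carriers, one of -1.16. Slc7a9 and its partner Slc3a1, which carry cystine, had log2 fold changes of -2.35 and -1.43, and without Cy/+ replicate 1 that of Slc7a9 was -3.0. Cltrn, which encodes the collectrin needed for amino acid carriers at the brush border, was at -1.58, and the carrier gene Slc6a18 at -1.95.

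Of 15 genes of the glutathione cycle tested, 12 were lower, 2 higher and 1 did not pass, and the median was -1.13 on the log2 scale. The shares of 80% lower and 13.3% higher compare with 29.3% and 37.4% of all tested genes. Synthesis genes fell alongside Ggt1 and Dpep1, with Gclc, the catalytic subunit of the first step, at -2.0 and Gss, the gene of glutathione synthetase, at -1.68. Gsr, which encodes glutathione reductase, had a log2 fold change of -1.80 (limma, adjusted p = 7.62e-05) and the peroxidase gene Gpx1 one of -0.80. Oplah, the gene of the 5-oxoprolinase that recovers glutamate, was at -1.19 and Nat8, which acetylates cysteine conjugates, at -3.05. The higher genes were the exporters Abcc1, at 2.14 from 304 ± 16.2 (SD, n = 3) to 1349 ± 240 (SD, n = 3), and Abcc4, at 0.30, which missed the threshold without +/+ replicate 2 or 3 or Cy/+ replicate 3.

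Of 20 other proteins of the brush border tested, 19 were lower (95%, against 29.3% of all tested genes) and 1 did not pass. The median was -1.46 on the log2 scale. The enzyme gene Alpl, which encodes alkaline phosphatase, was at -2.89, the scaffold gene Pdzk1 at -2.35 and Cdhr2, a cadherin gene of microvilli, at -2.17. Structural genes of the microvillus were among the lower ones too, with Vil1, the gene of villin, at -1.33, Pls1 at -0.30 and Ezr, the gene of ezrin, at -0.20 (limma, adjusted p = 0.0394). Ezr missed the threshold without any 1 of the +/+ arrays or Cy/+ replicate 3, and Pls1 without +/+ replicate 2. Myo7b did not pass, at 0.28. The endocytic receptor genes Lrp2 and Cubn both had a log2 fold change of -1.46.

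**Figure D4:**
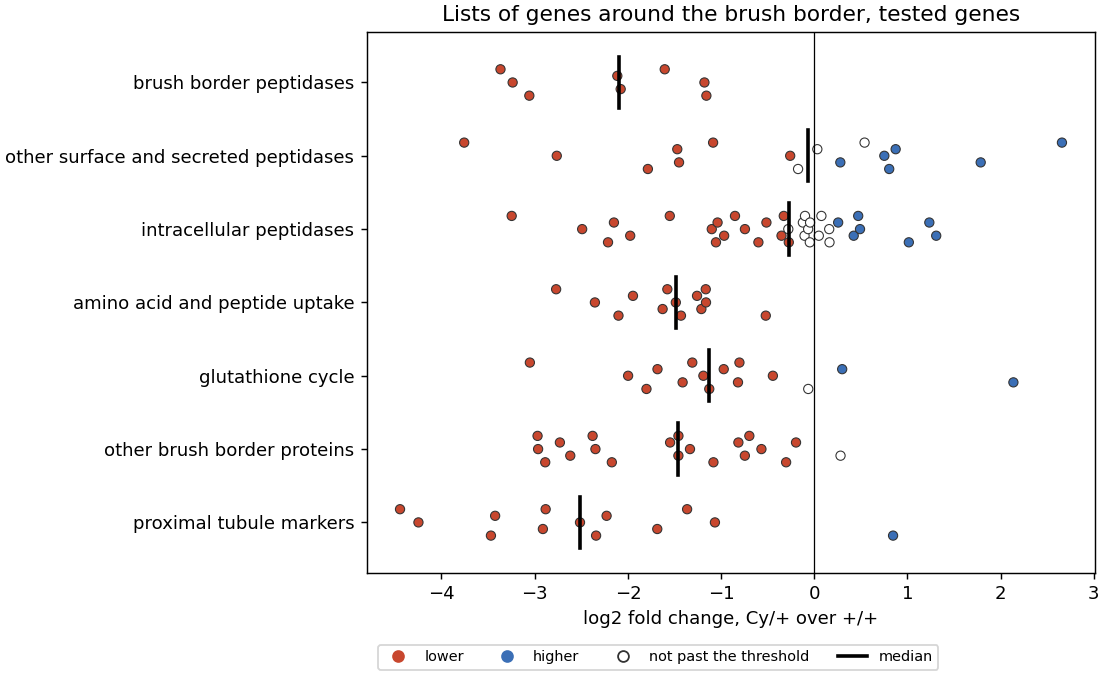
Log2 fold change, Cy/+ over +/+, of each tested gene in 7 lists, with red for lower, blue for higher, open for not past the threshold and a bar at the median of the list. The 8 brush border peptidases, 13 genes of the uptake list and 19 of 20 other brush border genes lie below 0 and are called. Of all tested genes 29.3% were called lower. The other surface and secreted peptidases have a median of -0.070.

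The genes whose profile over the 6 arrays was most like the mean profile of the 8 were Slc23a1, Slco1a1, Cndp1, Gjb2 and Nat8f1, each with a Pearson r of 0.999 or above (6 arrays, log2 signal, given as a description). The arrays form a cluster for each genotype, and r measures the gap between them together with the order within. Slc23a1, which encodes a vitamin C transporter, had 1829, 2021 and 1588 in the +/+ arrays and 223.4, 100.3 and 414.0 in the Cy/+ arrays. It showed the order of the meprin genes, lowest in Cy/+ replicate 2 and highest in replicate 3. Slco1a1, an organic anion carrier gene, had 3294, 4155 and 2997 in the +/+ arrays and 320.1, 112.1 and 543.0 in the Cy/+ arrays.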

How the data were processed

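Kidney RNA labelled Cy/+ (3 samples) or +/+ (3 samples) was hybridized to 1 array each. The authors prepared biotinylated cRNA by one-cycle labeling and read the scans in GCOS, and MAS5 is named in the submitters' processing notes. Deposited values are linear signal intensities, 1 for each of 31099 probe sets, without detection calls. How arrays were scaled to each other is not given in the sources used here, and the array medians were 120.1 to 128.1. Values were taken to log2 with no pseudocount. After leaving out 57 control probe sets, the 18625 with a mean log2 signal at or above the 40th percentile (6.28, a signal of 77.8) were tested with limma 3.58.1 in R 4.3.3 (eBayes with an intensity trend, no covariate), with Benjamini-Hochberg adjustment over all of them and a threshold of 0.05. Where a genotype's mean lay below that level, a fold is the brighter mean over 77.8. Of all probe sets 20832 had a single symbol, 436 had more than 1 and were not used for genes, and 9831 had none. Symbols were updated by Entrez ID for 20764 (GRCr8, used for names). The members and the 15 gene lists were chosen with earlier results of these data known. Named genes are the 8 members, every tested gene of the other surface peptidases, the 3 of smallest adjusted p each way in the other lists, and the 5 of most similar profile. Slc15a2, Slc7a9, Slc3a1, Cltrn, Slc6a18, Gclc, Oplah, Nat8, Vil1, Pls1, Ezr, Myo7b, Lrp2, Cubn, Xpnpep1, Xpnpep3, Cd3e, Cd4, Cd68, Itgam, Ptprc, Slc5a1, Slc22a8, Ppargc1a, Edn1, Tek, Eng, Pecam1 and Havcr1 were named for their role or their value after values were seen. The fit was tested on simulated data. The number of arrays limits the precision.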

Additional observations from a re-analysis of the deposited data

How the results depend on the processing

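Under 18 alternatives (quantile normalization, centring on the median, no filter, filtering at the 60th percentile instead, a pseudocount of 16, no intensity trend, array weights, the methods' test before and after adjustment, a replicate block, probe sets averaged per gene, dropping probe sets with several possible targets, and each array left out) 8 peptidase genes were lower in 16 and 7 in 2, and none was higher. The 7 were found with the methods' test after adjustment, where Ggt1 did not pass, and without probe sets of several possible targets, where Ggt1 has no probe set left. Such probe sets carry the suffix _a, _s or _x, and _a, the suffix for Ggt1, marks several transcripts of the same gene. Over these settings the share of all genes called lower was 24.1% to 33.2%. The other surface and secreted peptidases had 11 lower genes with no filter, where more genes were tested, against 7. Enpep turned to 0.13 without its brightest probe set, which also has the suffix _a. The Tmprss2 log2 fold change turned to -0.0546 with the mean of its probe sets. Of the pair ratios, Anpep over Dpep1 turned to -0.35 with the mean of probe sets and to -0.099 with the pseudocount, and ranged from -0.44 to 0.32 with an array left out, and no other pair changed its direction. With the second probe set of Dpep1, an alternative chosen after seeing the data, this ratio was at -0.73 and Ggt1 over Dpep1 at 0.19. Of the fold changes of the 16 other surface peptidases, 22 values lost and 3 gained the threshold under an alternative, and 35 counts of the supporting lists moved by over 1.5 times. The replicate numbers showed no clear pairing of the samples. The deviations of same-numbered samples correlated at 0.15, -0.11 and -0.15, and of the 3 Cy/+ samples only replicate 1 correlated best with its own number. With 3 arrays per genotype such weak correlations cannot exclude a pairing. With the replicate block all 8 peptidase genes were lower, as were 6 other surface peptidases and 17 intracellular ones. Signals near 77.8 and the 3 arrays per genotype limit what can be told, and a single probe set stands for Anpep, Mep1a, Mep1b, Mme, Ggt1 and Xpnpep2.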

Other observations

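Among 10 tested genes of peptides that these enzymes cut and their receptors, 5 were lower (50%), 2 higher (20%) and 3 did not pass. The median log2 fold change was -0.33, and of all tested genes 29.3% were lower and 37.4% higher. Klk1, the gene of tissue kallikrein, which releases kinins, measured 3374 ± 334 in +/+ and 311 ± 82.2 in Cy/+ kidneys (SD, n = 3), a log2 fold change of -3.47 (limma, adjusted p = 2.54e-05). Agt, the gene of angiotensinogen, was at -1.64 and Agtr1a, which encodes a receptor of angiotensin II, at -1.76. The natriuretic peptide receptor genes Npr1 (0.78) and Npr2 (0.91) were higher. Edn1, the gene of endothelin 1, did not pass, at 107 ± 4.33 (SD, n = 3) in +/+ and 122 ± 30.4 (SD, n = 3) in Cy/+ kidneys.

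Of 5 transcription regulators of the proximal tubule tested, 4 were lower (80%, against 29.3% of all tested genes). The median was -1.45 on the log2 scale. Hnf4a, which encodes hepatocyte nuclear factor 4 alpha, was at -2.0 (limma, adjusted p = 0.001), from 7713 ± 154 (SD, n = 3) to 2066 ± 826 (SD, n = 3), Nr1h4, the gene of the bile acid receptor FXR, at -1.82 and Esrra at -0.64. Ppargc1a did not pass, at -0.23. Of 7 endothelial markers 4 were lower (57.1%, against 29.3% of all tested genes), with Vwf at -1.94, Emcn at -1.58 and Flt1 at -0.91. Tek, Eng and Pecam1 did not pass, at -0.22, -0.17 and -0.12. Of 10 markers of the thick limb, distal tubule and collecting duct, Calb1 (-1.87), Egf (-2.13) and Slc26a4 (-1.13) were lower. That is 30%, near the 29.3% of all tested genes. The other 7 did not pass, and the median of the 10 was -0.081.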
